A study of Mus musculus with 4 samples.

Results

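Histones package DNA into nucleosomes, and a small set of them, the variant histones, is made from separate genes and can be put into chromatin outside DNA replication. The 10 genes described here code for linker histones (H1f0 and H1fx), variants of the core histones H2A and H3 (H2afz, H2afv, H2afx, H3f3a and H3f3b) and high mobility group box proteins (Hmgb1, Hmgb2 and Hmgb3). They were taken by name from the 29281 genes that any of the count files lists, with earlier results of these data known. All 10 are listed in each of the 4 files. Single cells of the mouse prefrontal cortex (PFC) were profiled at the postnatal days P1, P4 and P10 and from adult mice (P84), and each age is represented by 1 library. According to the methods, 2 female mice were used per age. The mice are C57BL/6 in the labels and C57BL/6J in the study's description, with no treatment or transgene, and tissue of all ages was handled in a buffer with Actinomycin D, a blocker of transcription, before protease digestion. Which cell came from which mouse is not used here, so each age is 1 sample. No difference between ages or between classes of cells has a replicate check, and no test was made.

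Linker histones bind DNA where it enters and leaves the nucleosome and help to fold the fibre. The H2A.Z proteins, coded by H2afz and H2afv, sit at promoters and enhancers, H2A.X (H2afx) is phosphorylated around DNA breaks, and H3.3 (H3f3a and H3f3b) replaces the H3 of dividing cells in neurons, which no longer replicate their DNA and turn their nucleosomes over through variants. HMGB proteins are abundant chromatin proteins that bend DNA for a short time. HMGB1 also acts outside the cell as a danger signal, and HMGB2 and HMGB3 are best known from dividing and immature cells.

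Values are CPM, the UMIs of a gene summed over the cells of a class and divided by the total UMIs of those cells, with mitochondrial and ribosomal protein genes left out of the total. Ratios are log2 ratios of CPM. Brackets give exact 95% intervals (Poisson for CPM, conditional binomial for ratios, Clopper-Pearson for shares), which cover counting error only. The files hold 200198548 to 340724049 UMIs per library, and the cells kept had a median of 11065 to 25800 UMIs. A gene was counted as higher or lower in a comparison when its CPM differed at least 2-fold, and each such count is set beside the percentage of all genes at 20 CPM or more on the mean of the 2 sums that differed as much in that direction. The P1 library stands apart from the others. Its file came from a later version of the pipeline than the other files, with intronic reads not excluded and another kind of bead, and its header calls the library P0. UMIs of 4 Y-linked genes were found in 55.3% of its cells against 0.163% to 0.241% of cells at the later ages, although the mice are described as female. It shares 12 to 20 cell barcodes with each of the other libraries, which share 319 to 368 among themselves. Differences between P1 and a later age therefore cannot be told apart from these differences between the libraries, and ratios or steps that start at P4 are given beside those from P1.

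Cells were clustered within each library without the genes described here, and clusters were named "-like" from markers of known classes. The classes are intratelencephalic (IT), layer 5 pyramidal tract (L5 PT), layer 5 near-projecting (L5 NP) and layer 6 corticothalamic (L6 CT) excitatory neurons, inhibitory neurons, neural progenitor cells (NPC), Eomes-positive newborn excitatory neurons (P1 only), astrocytes, oligodendrocyte precursors (OPC), oligodendrocytes (P10 and adult), microglia and vascular cells. IT-like cells were the most numerous class at each age, with 3556 to 6993 cells. The thinnest class compared, the 77 microglia-like cells of P4, and the 79 vascular-like cells of P1 carry the widest intervals, and the 35 microglia-like cells of P1 were left out of ratios. Values of P10 microglia-like cells leave out a cluster of 227 cells led by Mrc1, Mki67, Cenpe, Fcrls and C1qc, which stayed without a name. It had 453 CPM of Hmgb2, 625 of H2afz and 103 of H2afx. Its part in the steps from P4 to P10 of microglia-like cells was not tested. RNA of neurons was counted in glia-like and vascular-like cells as well. Over 7 to 8 neuronal genes, the median level there was 10.9% to 58.6% of that in IT-like cells of the same library, highest in oligodendrocyte-like cells of P10, of which 38.6% were marked as doublets. Its part in the values of those classes was not tested.

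Paralogs of the same protein are counted side by side in these data. The longest reading frames of H3f3a and H3f3b, both 411 bases long, share 76.9% of their bases and code for proteins identical at all 136 residues. Those of H2afz and H2afv share 79.1% of their bases, and 125 of 128 residues are identical. The HMGB proteins are less alike, at 80.5% identity for Hmgb1 and Hmgb2, 70.2% for Hmgb1 and Hmgb3 and 71.9% for Hmgb2 and Hmgb3, and H1f0 and H1fx share 32.5%. H1f0, H1fx, H2afv and H2afx have no other gene with 95% or more identity over 100 or more bases on the same strand. Hmgb1 has 39 such genes, H3f3a 15, Hmgb2 5, H2afz 2, H3f3b 2 and Hmgb3 1, almost all processed pseudogenes, and none of these is a column of the files, so that reads from a copy cannot be told apart from reads of the parent gene. Of genes that match on the opposite strand, 6 are in the files. Gm5577, opposite H1fx, has 6053 UMIs at P1, then 1039 at P4, 670 at P10 and 371 in the adult, and Gm17275, opposite H3f3a, has 3935, 1043, 499 and 211. How the counting used strand is not given in the sources used here.

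On GRCm38 (GENCODE M21), the linker histone genes are H1f0 (chr15:79028450-79030504, plus strand) and H1fx (chr6:87980421-87981637, minus strand). The H2A variants are H2afz (chr3:137864487-137866922, plus), H2afv (chr11:6427229-6444443, minus) and H2afx (chr9:44334694-44336077, plus), and the H3.3 genes are H3f3a (chr1:180800832-180813943, minus) and H3f3b (chr11:116021912-116027962, minus). The HMGB genes are Hmgb1 (chr5:149046702-149184489, minus), Hmgb2 (chr8:57511907-57515999, plus) and Hmgb3 (chrX:71555918-71560676, plus). H1f0, H1fx and H2afx have no intron. The genes with the most bases that are only intronic are Hmgb1 (132765), H2afv (15582) and H3f3a (9608), and the part of intronic reads in their P1 values was not tested.

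The upstream sequences of the paralogs differ from each other. In RefSeq windows of 300 bases (250 before the annotated start and 50 after it, build GRCm38.p6), found for 9 of the 10 genes (all but H2afx), the CCAAT box was searched as CCAAT or its reverse ATTGG. It occurs in 37.4% of 32851 promoters of this length, and 2 or more times in 11.7%. Of the 9 genes, 6 have a window with 2 or more: 4 each for Hmgb2, H3f3b and H2afv, and 3 each for H2afz, Hmgb1 and Hmgb3. Hmgb1 has another window (chr5:149051567-149051866) without these letters, and is counted by the window that has them. H3f3a has 1, and H1f0 and H1fx have none. RefSeq starts can differ from those of GENCODE, and the windows of H3f3a, H3f3b and Hmgb1 lie inside the longer GENCODE genes. A match of these letters is a description and not a site in use. The windows are rich in G and C, from 55.0% for H3f3b to 77.7% for H1fx, against a median of 52.7% over all promoters. The 250 bases before the start are shown for the H3.3 and H2A.Z pairs, whose members shift against each other with age, and for Hmgb2, which differed most of the 10 between NPC-like and IT-like cells, with the CCAAT letters on either strand in capitals.
H3f3a (chr1:180813606-180813855, minus strand, GRCm38.p6): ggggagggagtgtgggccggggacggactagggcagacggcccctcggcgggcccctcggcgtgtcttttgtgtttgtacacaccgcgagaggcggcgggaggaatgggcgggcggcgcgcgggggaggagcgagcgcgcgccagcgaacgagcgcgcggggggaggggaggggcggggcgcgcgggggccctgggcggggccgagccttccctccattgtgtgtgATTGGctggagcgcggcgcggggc
H3f3b (chr11:116024505-116024754, minus strand): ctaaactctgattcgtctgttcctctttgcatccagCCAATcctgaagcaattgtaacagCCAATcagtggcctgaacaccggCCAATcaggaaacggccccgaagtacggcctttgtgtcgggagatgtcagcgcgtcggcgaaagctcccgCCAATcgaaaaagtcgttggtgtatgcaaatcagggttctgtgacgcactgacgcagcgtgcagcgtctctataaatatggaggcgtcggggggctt
H2afz (chr3:137864237-137864486, plus strand): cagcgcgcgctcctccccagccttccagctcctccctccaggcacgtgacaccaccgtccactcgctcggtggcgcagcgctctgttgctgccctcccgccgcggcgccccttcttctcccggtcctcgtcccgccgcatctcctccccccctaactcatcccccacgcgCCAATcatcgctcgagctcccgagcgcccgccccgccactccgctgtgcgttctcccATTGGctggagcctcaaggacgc
H2afv (chr11:6444444-6444693, minus strand): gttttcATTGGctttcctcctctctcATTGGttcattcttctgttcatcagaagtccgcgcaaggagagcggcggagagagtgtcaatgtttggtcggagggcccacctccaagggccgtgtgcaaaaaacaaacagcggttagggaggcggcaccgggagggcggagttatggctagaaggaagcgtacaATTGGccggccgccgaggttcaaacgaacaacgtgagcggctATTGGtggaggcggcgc
Hmgb2 (chr8:57511593-57511842, plus strand): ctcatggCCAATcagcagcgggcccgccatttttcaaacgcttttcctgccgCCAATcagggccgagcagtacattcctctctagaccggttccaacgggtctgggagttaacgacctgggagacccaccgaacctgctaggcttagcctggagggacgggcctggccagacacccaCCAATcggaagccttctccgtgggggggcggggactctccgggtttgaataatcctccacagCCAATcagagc

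H1f0, the gene of the replacement linker histone H1.0, known for its accumulation in cells that leave division, was higher in adult than at P1 or P4 in neurons and lower in most glia. In IT-like cells its level was 64.2 CPM [62.8, 65.7] at P1, then 65.1 [63.6, 66.7] at P4, 68.0 [66.3, 69.7] at P10 and 101 [99.0, 103] in the adult. The increase therefore lay after P10, with a ratio of 0.57 [0.52, 0.62] from P10 to adult. Inhibitory-like cells passed from 87.7 CPM at P1 over 89.5 at P4 and 114 at P10 to 154 in adult, so that part of their increase came before P10. The other neuronal classes showed the same direction, with adult over P4 ratios of 0.67 [0.57, 0.77] in L5 PT-like, 0.49 [0.40, 0.58] in L6 CT-like and 1.14 [0.92, 1.37] in L5 NP-like cells. In astrocyte-like cells H1f0 was 378 CPM [357, 400] at P1, then 204 [195, 213] at P4, 128 [120, 136] at P10 and 129 [119, 138] in the adult, a lower level that was already that of P10. Adult over P4 ratios were -0.67 [-0.79, -0.54] in astrocyte-like, -1.19 [-1.36, -1.02] in OPC-like, -0.87 [-0.99, -0.75] in vascular-like and -1.83 [-2.08, -1.58] in microglia-like cells. From P10 to adult, a step over which astrocyte-like cells kept their level, oligodendrocyte-like cells passed from 117 CPM [108, 127] to 233 [220, 247]. This is a ratio of 0.99 [0.85, 1.14] for oligodendrocyte-like cells, which have no P4 value. In these cells the median level of 8 neuronal genes was 58.6% of that in IT-like cells at P10 and 14.1% in the adult, and 38.6% and 2.26% of the cells were marked as doublets. Their part in the H1f0 ratio was not tested. In cells with no proliferation UMI (defined with the cycling cells further on) the adult over P4 ratios of H1f0 were smaller, -0.39 [-0.63, -0.16] in OPC-like and -0.49 [-0.71, -0.26] in vascular-like cells.

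The order of classes for H1f0 changed with these courses. At P4 the NPC-like cells stood first at 592 CPM, followed by vascular-like (337), microglia-like (301), OPC-like (253) and astrocyte-like cells (204), and every named neuronal class was below 90 CPM, down to 33.7 in L5 NP-like cells. Unnamed clusters of P4 had 200 CPM (122 cells led by Ndnf, Nhlh2 and Reln) and 103 CPM (281 cells led by Ctgf and Nxph4). Others had 81.8 CPM (694 cells led by Vegfd) and 79.0 CPM (195 cells led by Syt6). In adult the oligodendrocyte-like cells were first at 233 CPM, then vascular-like (185) and inhibitory-like cells (154). Astrocyte-like (129) and OPC-like cells (111) had overlapping intervals, as had OPC-like and L6 CT-like cells (both 111), L5 PT-like (90.5) and microglia-like cells (84.3), and microglia-like and L5 NP-like cells (74.3).

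H1fx, which codes for the linker histone H1.10, changed less than 2-fold in neurons and dipped at P10. Its level in IT-like cells was 64.4 CPM [63.0, 65.8] at P1, then 65.4 [63.9, 67.0] at P4, 33.6 [32.4, 34.8] at P10 and 54.3 [52.7, 56.0] in the adult. The dip appeared in all 5 neuronal classes, with P10 over P4 ratios from -0.96 [-1.03, -0.90] in IT-like to -0.80 [-0.91, -0.70] in L6 CT-like cells. In astrocyte-like cells H1fx was 126 CPM at P1, then 70.5 at P4, 20.2 at P10 and 20.1 in the adult, so the P10 level was kept there. OPC-like cells passed from 140 CPM at P1 and 104 at P4 to 33.5 at P10 and 41.2 in the adult. Microglia-like cells had the lowest levels, 9.81 CPM [6.22, 14.7] at P10 and 8.86 [6.17, 12.3] in the adult, 2.62 [2.14, 3.14] log2 units under IT-like cells in adult.

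Among the H2A variants, H2afz (H2A.Z.1) was higher in adult than at P1 in neurons and lower in glia, and was highest at P10 in all neuronal classes but the L5 NP-like cells. In IT-like cells it stood at 157 CPM [155, 159] at P1, then 224 [222, 227] at P4, 317 [313, 320] at P10 and 225 [222, 228] in the adult. The adult level was therefore that of P4, with a ratio of 0.00 [-0.02, 0.03]. L5 PT-like cells had the steepest course of the neurons, from 129 CPM at P1 and 199 at P4 to 342 at P10 and 220 in the adult. L5 NP-like cells changed little, with 182 CPM at P4, 179 at P10 and 206 in the adult. In astrocyte-like cells H2afz went from 317 CPM at P1 over 243 and 166 to 114 in adult, and in OPC-like cells from 417 CPM at P1 and 519 at P4 to 268 at P10 and 211 in the adult. From P4 to P10 the ratio was positive in 4 of 5 neuronal classes, with -0.02 [-0.13, 0.09] in L5 NP-like cells, and negative in all 4 classes of glia-like and vascular-like cells, from -0.40 [-0.50, -0.30] in vascular-like to -1.12 [-1.29, -0.95] in microglia-like cells. In cells with no proliferation UMI the P10 over P4 intervals included 0 in OPC-like (-0.13 [-0.29, 0.02]) and vascular-like cells (0.07 [-0.14, 0.29]), while the ratio in astrocyte-like cells was -0.43 [-0.55, -0.31]. The adult over P1 interval in such OPC-like cells (0.02 [-0.23, 0.27]) also included 0.

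H2afv (H2A.Z.2), whose product differs from that of H2afz at 3 residues, had its lowest level at P10 in every neuronal class. In IT-like cells it was 43.9 CPM [42.8, 45.1] at P1, then 20.7 [19.9, 21.6] at P4, 12.5 [11.8, 13.3] at P10 and 34.1 [32.8, 35.4] in the adult. The step from P10 to adult was 1.44 [1.34, 1.54] in IT-like cells, 1.39 [1.24, 1.54] in inhibitory-like, 1.38 [1.16, 1.60] in L5 PT-like, 1.36 [1.09, 1.64] in L5 NP-like and 1.18 in L6 CT-like cells. H2afz was thus highest at the age at which H2afv was lowest in IT-like, L5 PT-like, L6 CT-like and inhibitory-like cells, although in the latter 2 its P10 level (193 and 266 CPM) was close to that of the adult (186 and 249 CPM). The lower level at P4 than at P1 (-1.08 [-1.16, -1.01] in IT-like cells) rests on the P1 library, whose file includes intronic reads. In the same 2 libraries the P4 over P1 ratio of H2afv was -1.14 [-1.27, -1.01] in astrocyte-like, -0.43 [-0.58, -0.28] in OPC-like, -0.37 [-0.57, -0.17] in vascular-like and -0.07 [-0.14, -0.01] in NPC-like cells. Outside neurons the adult over P4 ratios of H2afv ran from -0.53 [-0.69, -0.38] in astrocyte-like to -1.37 [-1.77, -0.95] in microglia-like cells. In cells with no proliferation UMI they were 0.11 [-0.17, 0.38] in OPC-like and 0.00 [-0.34, 0.36] in vascular-like cells, both intervals including 0.

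H2afx, the gene of the DNA break marker H2A.X, changed less than 2-fold in every neuronal class. In IT-like cells it was 36.3 CPM [35.2, 37.4] at P1, then 44.5 [43.3, 45.8] at P4, 49.8 [48.3, 51.2] at P10 and 31.3 [30.1, 32.6] in the adult. Its adult over P1 ratio, -0.21 [-0.28, -0.14] in IT-like cells, is close to the median ratio of all genes in that comparison, -0.19. In L6 CT-like cells the interval of this ratio, -0.14 [-0.31, 0.02], included 0, and in inhibitory-like cells it was -0.03 [-0.17, 0.10]. OPC-like cells went from 97.3 CPM at P1 and 84.5 at P4 to 28.6 at P10 and 41.8 in the adult, and microglia-like cells from 91.5 CPM [70.9, 116] at P4 to 21.7 [16.2, 28.6] at P10. OPC-like cells with no proliferation UMI were at 36.1 CPM at P4, 27.4 at P10 and 36.2 in the adult, and their P10 over P4 interval, -0.40 [-0.84, 0.04], included 0.

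Both H3.3 genes were lower in adult than at P1 or P4 in all classes that could be compared. H3f3a, the first of the pair, stood at 1049 CPM [1044, 1055] at P1, then 1060 [1054, 1066] at P4, 387 [383, 391] at P10 and 183 [180, 186] in the adult in IT-like cells. Its level was thus similar in the P1 and P4 libraries and lower after P4, with ratios of 0.01 [0.00, 0.03], -1.45 [-1.47, -1.44] and -1.08 [-1.11, -1.05] for the 3 steps. The ratio from P1 to P4 rests on the P1 library, whose file includes intronic reads, and does not show a flat course. The adult over P4 ratios of H3f3a were -2.53 [-2.56, -2.51] in IT-like, -2.14 [-2.19, -2.08] in L5 PT-like, -2.88 [-2.93, -2.82] in L6 CT-like, -2.65 [-2.74, -2.56] in L5 NP-like and -2.78 [-2.83, -2.73] in inhibitory-like cells. Outside neurons they ran from -1.52 [-1.65, -1.40] in microglia-like to -1.94 [-2.02, -1.86] in astrocyte-like cells, and the intervals of these classes did not reach those of any neuronal class. In adult, H3f3a was higher in vascular-like (486 CPM) and oligodendrocyte-like cells (503 CPM) than in any neuronal class (156 to 197 CPM), while at P1 IT-like, L5 PT-like, L6 CT-like and inhibitory-like cells (958 to 1058 CPM), vascular-like cells (1103 CPM) and newborn excitatory-like cells (1176 CPM) were closer together. Oligodendrocyte-like cells had 562 CPM [542, 583] at P10 and 503 [483, 523] in the adult.

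H3f3b, which codes for the same protein, had adult over P4 ratios closer to 0 than those of H3f3a in the classes given here. From P1 to P4 it differed more than H3f3a in IT-like cells. In IT-like cells it was 663 CPM [658, 667] at P1, then 511 [507, 516] at P4, 250 [247, 253] at P10 and 155 [152, 158] in the adult. Its adult over P4 ratios were -1.72 [-1.75, -1.70] in IT-like, -1.54 in inhibitory-like, -1.67 [-1.77, -1.58] in astrocyte-like, -1.34 [-1.44, -1.24] in OPC-like and -0.93 [-1.06, -0.79] in microglia-like cells. Newborn excitatory-like cells of P1, with 1283 CPM [1261, 1307], had 0.95 [0.93, 0.98] log2 units more H3f3b than IT-like cells of the same library, whereas H3f3a differed by 0.16 [0.14, 0.19]. In adult H3f3b was again highest in oligodendrocyte-like (457 CPM), microglia-like (448) and vascular-like cells (446), whose intervals overlapped, and lowest in L6 CT-like cells (122).

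The HMGB genes were lower in adult than at P1 or P4 in every class compared. Hmgb1, coding for an abundant nuclear protein, was at 816 CPM [811, 821] at P1, then 925 [919, 931] at P4, 547 [542, 551] at P10 and 257 [253, 260] in the adult in IT-like cells. Its adult over P4 ratios lay in a narrow band, from -1.32 [-1.41, -1.24] in vascular-like to -2.05 in inhibitory-like cells. IT-like cells had more Hmgb1 than the other neuronal classes at every age, with 925 CPM at P4 against 568 in L5 PT-like, 639 in L5 NP-like, 698 in inhibitory-like and 751 in L6 CT-like cells. Hmgb3, an X-linked gene known from stem and progenitor cells, had the lowest adult over P1 ratio of the genes that passed 20 CPM in IT-like, L5 PT-like and L6 CT-like cells, down to -4.25 in L5 PT-like cells. In inhibitory-like cells its ratio, -2.67 [-2.75, -2.59], overlapped that of H3f3a, -2.64 [-2.69, -2.59]. It stood at 375 CPM [372, 379] at P1, then 283 [279, 286] at P4, 107 [105, 110] at P10 and 33.9 [32.7, 35.2] in the adult in IT-like cells, and at 248 CPM at P1, then 198 at P4, 75.9 at P10 and 13.1 [11.4, 14.9] in the adult in L5 PT-like cells. In inhibitory-like cells the course was slower, with 343, 308, 184 and 53.9 CPM, so that in adult the inhibitory-like cells had 0.67 [0.57, 0.76] log2 units more Hmgb3 than IT-like cells, after -0.13 [-0.16, -0.10] at P1. Microglia-like cells reached 6.33 CPM [4.09, 9.34] in adult, from 169 CPM [141, 202] at P4. The median level of 8 neuronal genes in them was 43.4% of that in IT-like cells at P4 and 17.2% in the adult. The part of such RNA in these Hmgb3 values was not tested.

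Hmgb2 was low in neurons and high in NPC-like cells. IT-like cells had 13.7 CPM [13.1, 14.4] at P1, then 13.8 [13.1, 14.5] at P4, 4.64 [4.21, 5.11] at P10 and 1.58 [1.32, 1.88] in the adult, below the 20 CPM minimum at every age. NPC-like cells had 1378 CPM [1359, 1397] at P1, then 1531 [1497, 1565] at P4 and 1179 [1138, 1222] at P10. Between these lay microglia-like cells with 484 CPM at P4, 159 at P10 and 38.2 in the adult, OPC-like cells with 351 at P1, then 302 at P4, 42.2 at P10 and 33.0 in the adult, and vascular-like cells with 176, 339, 223 and 39.8 CPM at the 4 ages. Over all cells of a class the largest drop of Hmgb2 lay between P1 and P4 in astrocyte-like cells (290 to 71.4 CPM), between P4 and P10 in OPC-like and after P10 in vascular-like cells. In OPC-like cells with no proliferation UMI the step from P4 to P10 was -0.80 [-1.23, -0.38] and that from P10 to adult -1.40 [-2.13, -0.73]. These intervals overlap, and the levels were 45.3 CPM at P4, 25.9 at P10 and 9.80 in the adult, so that the larger step is not settled there. In adult, microglia-like cells had 4.59 [4.24, 4.95] log2 units more Hmgb2 than IT-like cells, whose level is below the 20 CPM minimum. Of these microglia-like cells 0 of 1041 were classed as cycling, which allows a share of up to 0.288% (3 counts of the total) that pass this call. The call does not bound the share of dividing cells, and 960 of the 1041 had no proliferation UMI.

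**Figure D1:**
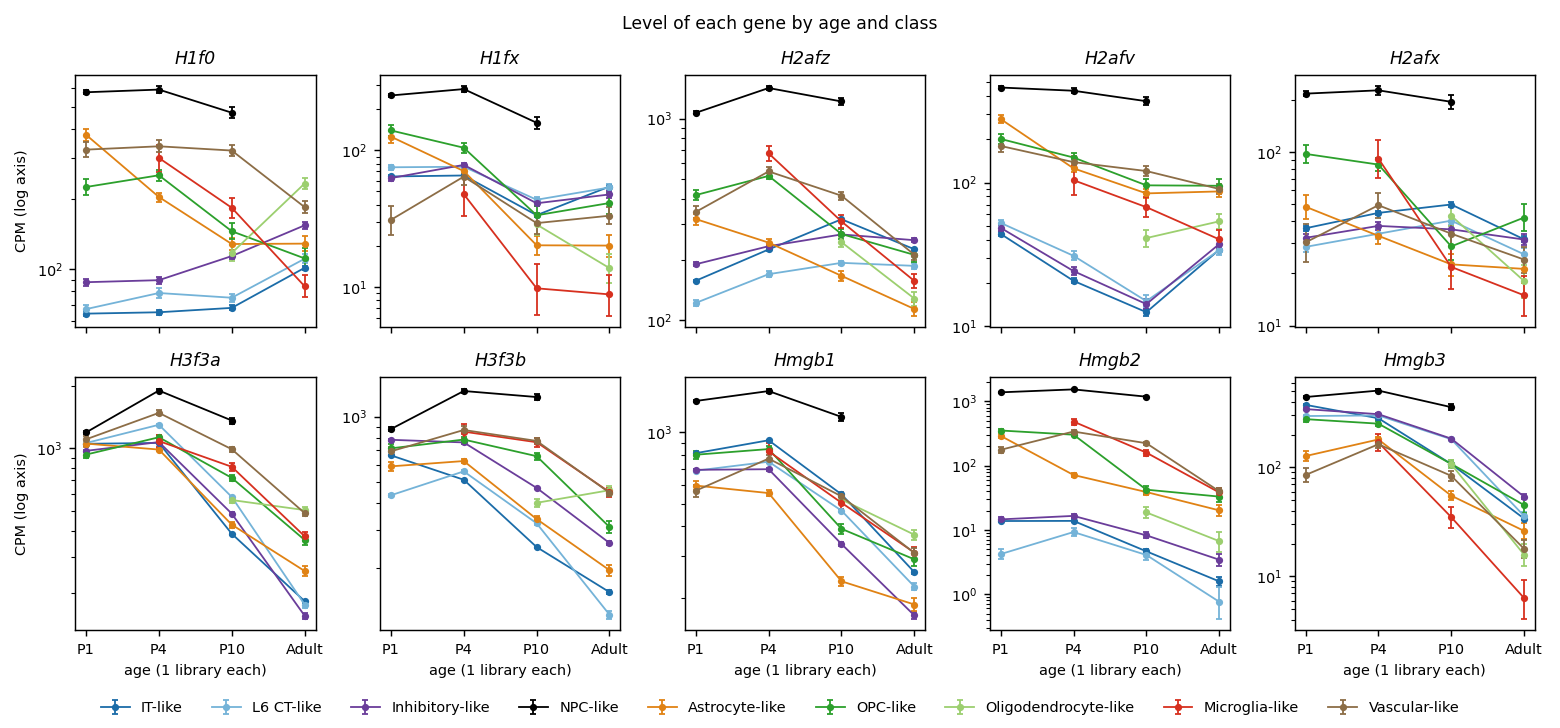
CPM of the 10 genes (vertical log axis, 1 panel per gene with its own range) at P1, P4, P10 and in adult, for 9 classes of cells (coloured lines). Points are sums over the cells of 1 library and bars are exact 95% Poisson intervals. H1f0 is higher in adult than at P1 in the neuronal classes and lower in astrocyte-like, OPC-like and vascular-like cells, H2afv is lowest at P10 in neurons, and H3f3a, Hmgb1 and Hmgb3 are lower in adult than at P10 in all lines.

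Counted over the 10 genes, none was 2-fold higher in adult than at P1 in any of the 6 classes described next. In IT-like cells 5 were 2-fold lower (H3f3a, H3f3b, Hmgb1, Hmgb2 and Hmgb3), against 25.0% of all 7565 genes tested that were lower and 17.3% that were higher, and 9 of the 10 passed the 20 CPM minimum. The same 5 genes were lower in L5 PT-like cells (21.3% of all genes lower, 16.1% higher), in L6 CT-like cells (25.3% lower, 15.5% higher) and in inhibitory-like cells (24.8% lower, 17.1% higher). All 10 were lower in astrocyte-like cells (25.1% of all genes lower, 13.3% higher) and 9, all but H2afz, in OPC-like cells (13.7% lower, 13.3% higher). The astrocyte-like count rests on 150 cells of the P1 library, 17.3% of them cycling. From P4 to adult H1f0 (-0.67) and H2afv (-0.53) were among the genes short of 2-fold in astrocyte-like cells. In such cells with no proliferation UMI, H2afx was at -0.49 [-0.86, -0.13] from P4 to adult. The OPC-like count was 5 with a stricter cell filter and 4 in cells with no UMI of the 20 proliferation genes, and H2afx, at -1.22 [-1.53, -0.91], turned to 0.28 and 0.54 there. No share of all genes is given for these 2 alternatives. Genes below 20 CPM, such as Hmgb2 in neurons, are included in these counts. The median ratio of the 10 genes was -1.02 in IT-like cells against -0.19 for all genes, and -1.67 in astrocyte-like cells against -0.38. Scaling to the median gene would move each ratio up by 0.19 and 0.38, and with median-ratio scaling 1 gene, H1f0, was 2-fold higher in inhibitory-like cells. In OPC-like cells it was -1.29 against -0.11.

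The steps between consecutive ages place these changes. From P1 to P4 IT-like cells had 1 gene lower (H2afv, with 6.45% of all genes lower) and 0 higher (4.28%). From P4 to P10, 4 genes were lower in IT-like cells (H3f3a, H3f3b, Hmgb2 and Hmgb3), against 6.32% of all genes, and 0 were higher (7.02%). From P10 to adult 4 were lower (H3f3a, Hmgb1, Hmgb2 and Hmgb3, with 6.44% of all genes) and 1 was higher (H2afv, 7.24%). In inhibitory-like cells 3 were lower from P4 to P10 (H3f3a, Hmgb1 and Hmgb2, against 3.92% of all genes) and 0 higher (4.55%), and from P10 to adult 4 were lower (the same genes and Hmgb3, against 6.02%) and 1, H2afv, higher (5.66%). With median-ratio scaling the P4 to P10 count in inhibitory-like cells was 1, since Hmgb1, at -1.05, and Hmgb2, at -1.01, lie just past 2-fold.

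In glia-like classes part of the change lay before P10. From P4 to P10, 4 genes were lower in astrocyte-like cells (H1fx, H3f3a, Hmgb1 and Hmgb3, against 7.51% of all genes) and 0 higher (5.95%), and 5 in OPC-like cells (H1fx, H2afx, Hmgb1, Hmgb2 and Hmgb3, against 3.02%) and 0 higher (2.90%). In OPC-like cells with no proliferation UMI 1 gene, H1fx, stayed past 2-fold from P4 to P10 (-1.10), with Hmgb3 at -0.97 [-1.18, -0.77] and Hmgb1 at -0.91 [-1.02, -0.80] just short of it. Without the cells marked as doublets all 10 were lower in astrocyte-like cells. No share of all genes is given for the alternatives in this paragraph. A shift of many genes of a class therefore cannot be told apart there from a shift of these 10. From P10 to adult, 4 were lower in oligodendrocyte-like cells (H1fx, H2afx, Hmgb2 and Hmgb3), where 26.4% of all genes were lower and 10.8% higher, and this count was 2 without marked doublets. The ratio of H1fx turned to 0.27 with a stricter cell filter and to 0.025 without marked doublets. Microglia-like cells had 4 lower from P10 to adult (H1f0, H3f3a, Hmgb2 and Hmgb3, against 5.21% of all genes) and 0 higher (3.07%). At clustering resolution 1.0, with a stricter cell filter or without marked doublets this count was 9, and a P10 cluster of 227 cells led by Mrc1, Mki67 and C1qc stayed without a name in the clustering used here. Vascular-like cells had 3 lower (H3f3a, Hmgb2 and Hmgb3, against 6.08%) and 0 higher (9.42%).

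**Figure D2:**
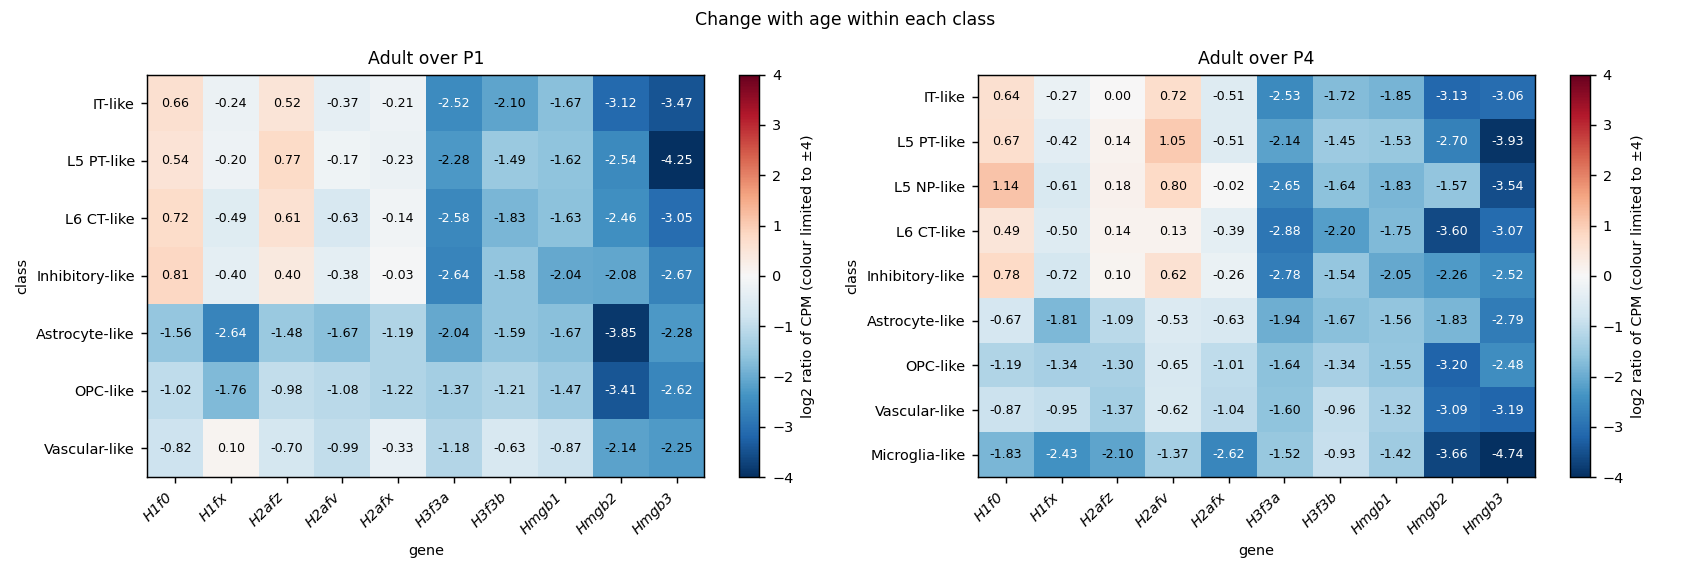
Log2 ratios of CPM, adult over P1 (left) and adult over P4 (right), for the 10 genes (columns) in each class with at least 50 cells at both ages (rows); blue is lower and red higher in adult, and the colour is limited at 4 log2 units. H1f0 is red in all neuronal rows and blue in all glial and vascular rows of both panels, and the 5 columns from H3f3a to Hmgb3 are blue throughout.

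NPC-like cells carried more of these genes than neurons of the same library, which share its chemistry and pipeline. Their clusters were named from genes of dividing cells, such as Mki67, Top2a and Cdk1. By the rule given further on, 66.5% of them were cycling at P1, 84.6% at P4 and 67.1% at P10. The comparison with IT-like cells is thus also one of dividing with mostly non-dividing cells, and the 2 were not told apart. Over IT-like cells, NPC-like cells had 6 genes at least 2-fold higher at P1 (H1f0, H1fx, H2afz, H2afv, H2afx and Hmgb2, against 17.0% of all genes), 7 at P4 (these and H3f3b, against 16.6%) and all 10 at P10 (21.9%). Hmgb2 led with ratios of 6.65 [6.58, 6.72], 6.79 [6.71, 6.87] and 7.99 [7.84, 8.14]. H2afv followed with 3.38 [3.33, 3.43], 4.39 [4.31, 4.48] and 4.87, and H1f0 with 3.17 [3.12, 3.21], 3.18 [3.12, 3.25] and 2.79 [2.70, 2.88]. H3f3a differed least at P1, 0.18 [0.16, 0.20], and its ratio was 1.81 [1.76, 1.86] at P10, where its level in IT-like cells had come down while NPC-like cells had 1359 CPM. Among NPC-like cells themselves all 10 genes differed less than 2-fold between ages, with the widest ratios for H1fx from P4 to P10 (-0.82 [-0.98, -0.66]) and for H3f3a from P1 to P4 (0.67 [0.63, 0.71]). Most other genes did so as well. Of all genes, 4.11% were higher and 5.83% lower from P1 to P4, and 4.66% and 0.877% from P4 to P10. From P1 to P10 9.24% were higher and 7.05% lower. Newborn excitatory-like cells of P1 held H1f0 (2.23 [2.16, 2.29] over IT-like cells), Hmgb2 (2.23 [2.09, 2.36]) and H2afv (1.75 [1.66, 1.83]) above IT-like cells, but had H1fx at -0.11 [-0.24, 0.01] and H2afx at -0.39 [-0.57, -0.21]. The NPC-like cells of P10 are 428 cells of 1 cluster, and this cluster was not named with a stricter cell filter or at resolution 1.0. Without marked doublets the class had 102 cells, although 9.58% of the 428 were marked.

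Within single classes, cells were called cycling when 20 proliferation genes, none of them among the 10, gave at least 3 UMIs and 300 CPM, and were compared with cells of the same class and library without any such UMI. In NPC-like cells of P1 (383 cycling against 74 cells), 8 genes were at least 2-fold higher, against 6.49% of all genes. Hmgb2 was at 1915 CPM in cycling cells and 82.0 in the others (4.55 [4.29, 4.81]), H2afx at 296 against 32.9 (3.17 [2.77, 3.60]) and H2afz at 1375 against 265 (2.37 [2.23, 2.52]). H3f3a (0.43 [0.36, 0.51]) and H3f3b (0.64 [0.54, 0.73]) were the 2 genes short of 2-fold. At resolution 1.0 the NPC-like class of P1 had 340 cells instead of 576, and the astrocyte-like class 386 instead of 150. The comparison was not run there, and the part of cell type in these ratios was not tested. In OPC-like cells of P4 (247 against 386 cells) 6 were higher, against 4.80% of all genes, with Hmgb2 at 4.33 [4.04, 4.62], H2afx at 2.36 [2.01, 2.72], H2afz at 2.03 [1.90, 2.17] and H1f0 at 1.77 [1.59, 1.95], while H3f3a was lower in cycling cells, -0.17 [-0.26, -0.09]. Vascular-like cells of P4 (100 against 109 cells) had 5 higher, against 3.03%, led by Hmgb2 (3.55 [3.16, 3.96]) and H2afx (2.23 [1.46, 3.09]). NPC-like cells of P10 (287 against 98 cells) had 4 higher, against 11.3%, with H2afx (3.12 [2.13, 4.34]) ahead of Hmgb2 (2.89) and H1f0 at 0.23 [-0.04, 0.51]. Cycling cells had the higher median UMI count in these 4 comparisons, 24646 against 18688 in NPC-like cells of P1 and 5713 against 2866 in those of P10.

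The linker histone H1f0 was thus above its non-cycling level in cycling OPC-like, vascular-like and P1 NPC-like cells, but not beyond its interval in cycling astrocyte-like cells of P4 (0.12 [-0.15, 0.38], 74 against 951 cells) or NPC-like cells of P10. Microglia-like cells of P10 (52 against 406 cells) showed Hmgb2 at 2.09 [1.74, 2.43], H2afv at 1.64 [1.03, 2.23] and H2afz at 1.30 [1.02, 1.58], with H3f3a at -0.06 [-0.29, 0.17] and H3f3b at 0.04 [-0.20, 0.26]. Few cells of neuronal classes were called cycling. Adult counts were 43 of 4286 IT-like, 24 of 1143 L6 CT-like, 2 of 1397 inhibitory-like and 0 of 708 L5 PT-like cells. Non-neuronal ones were 5 of 1714 astrocyte-like, 6 of 956 vascular-like, 2 of 973 oligodendrocyte-like, 0 of 1041 microglia-like and 18 of 525 OPC-like cells. The adult IT-like and L6 CT-like shares were thus above those of all these non-neuronal classes but OPC-like cells. Whether neuronal cells that pass the call were dividing was not tested. In the 60 cycling IT-like cells of P4 Hmgb2 was 2.47 [1.98, 2.92] above the 4214 IT-like cells with no proliferation UMI, in the 54 cycling inhibitory-like cells it was 3.08 [2.71, 3.44] above the 1993 without, and 3.33% and 7.41% of these cells were marked as doublets. Among the other cycling cells of P4, 31.1% of astrocyte-like, 16.0% of vascular-like and 8.91% of OPC-like cells were marked. The share was 10.2% in cycling NPC-like cells of P1, 13.6% in those of P10 and 7.69% in cycling microglia-like cells of P10.

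**Figure D3:**
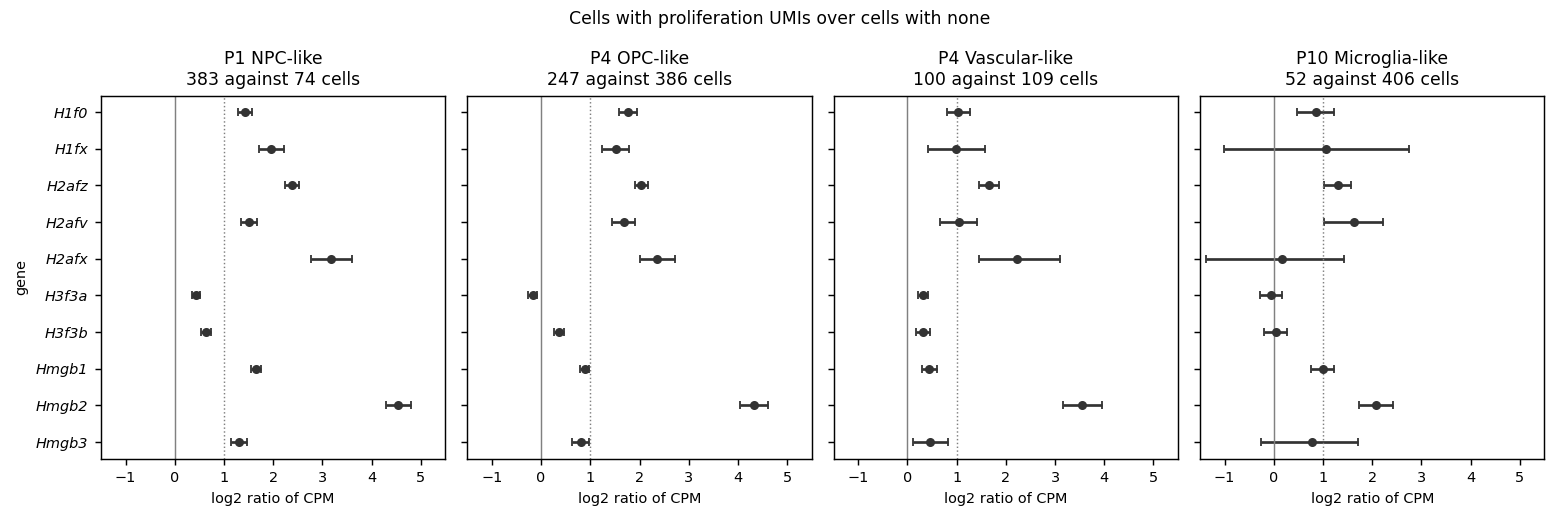
Log2 ratio of CPM between cycling cells and cells with no UMI of 20 proliferation genes, for the 10 genes in NPC-like cells of P1, OPC-like and vascular-like cells of P4 and microglia-like cells of P10, with exact 95% intervals and a dotted line at 2-fold. The point of Hmgb2 lies farthest to the right in these 4 panels, and H3f3a and H3f3b lie to the left of the dotted line in all 4.

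The share of cells called cycling in a class changed with age, and differently from class to class. It was 28.6% of OPC-like cells at P1, then 30.9% at P4, 4.65% at P10 and 3.43% in the adult, and 33.0%, 16.5% and 0.628% of vascular-like cells at P4, P10 and in adult. Astrocyte-like cells had 17.3% at P1 and 5.19% at P4, but no more than 1.18% later. In microglia-like cells it was 50.6% at P4 (39 of 77 cells) and 8.80% at P10, with 0 of 1041 cells in the adult, and with 24 cells of P4 free of proliferation UMIs the ratios that start from P4 microglia-like cells could not be taken again. The P10 share leaves out the unnamed cluster of 227 cells led by Mrc1, Mki67 and C1qc. Since the shares changed with age, the age ratios were taken again in cells with no proliferation UMI. From P4 to adult in OPC-like cells (386 and 446 such cells), the ratio was then -0.39 for H1f0, -0.52 for H2afz, 0.11 for H2afv and 0.00 for H2afx, against -1.19, -1.30, -0.65 and -1.01 over all OPC-like cells. H3f3a (-1.68), H3f3b (-1.28), Hmgb1 (-1.31) and Hmgb3 (-2.35) stayed close to their ratios over all OPC-like cells. Vascular-like cells (109 and 833 cells) showed the same split, with H2afz at -0.53 against -1.37 and Hmgb2 at -0.71 against -3.09, but Hmgb3 at -3.01 against -3.19. In astrocyte-like cells (951 and 1621 cells) the ratios stayed close to those over all cells, with H1f0 at -0.77 against -0.67 and H2afz at -0.93 against -1.09. Microglia-like cells without proliferation UMIs (406 at P10 and 960 in the adult) had an adult over P10 ratio of -1.13 for H1f0, as over all cells (-1.12). These cells have fewer UMIs than the rest of their class, and 0 proliferation UMIs does not show that a cell was not dividing.

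**Figure D4:**
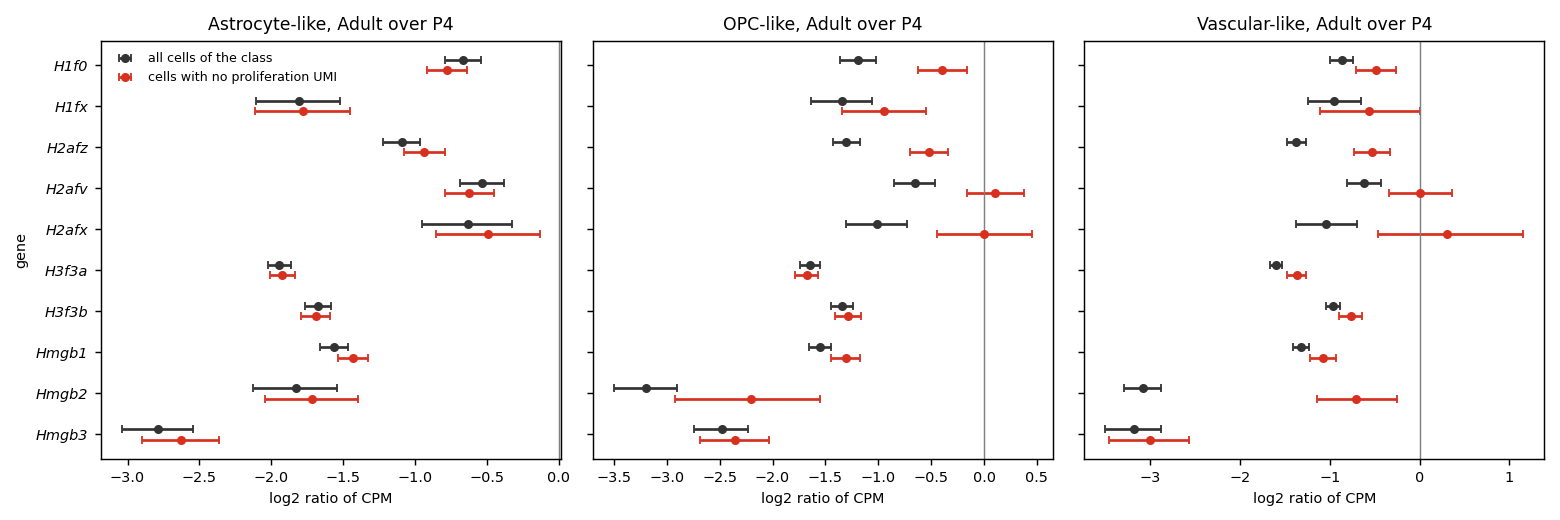
Log2 ratio of CPM, adult over P4, of the 10 genes in astrocyte-like, OPC-like and vascular-like cells, over all cells of the class (dark points) and over cells with no proliferation UMI (red points), with exact 95% intervals. Red and dark points nearly coincide in astrocyte-like cells, while in OPC-like and vascular-like cells the red points of H1f0, H2afz, H2afv, H2afx and Hmgb2 lie closer to 0.

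Shares of UMIs between paralogs do not depend on the scaling and are read across classes and ages only, since transcript length was not corrected. H3f3b held 38.7% [38.5, 38.9] of H3.3 UMIs in IT-like cells at P1, then 32.5% [32.3, 32.8] at P4, 39.3% [38.9, 39.7] at P10 and 45.8% [45.2, 46.4] in the adult. In inhibitory-like cells the share of H3f3b was above that of IT-like cells at every age and reached 62.6% [61.7, 63.6] in adult, from 41.5% [41.2, 41.9] at P4. In adult, microglia-like cells followed with 54.4% [52.6, 56.1], and L5 PT-like (39.6%) and L6 CT-like cells (40.8%) were lowest. Newborn excitatory-like cells of P1 had a share of 52.2% [51.5, 52.8], above all classes of that library, of which the highest other was 44.6% in inhibitory-like cells. From P4 to adult the share of H3f3b was higher in all 9 classes compared, while the summed level of both genes was lower, as in IT-like cells with 1571 CPM at P4 and 338 in adult.

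H2afv held 21.9% [21.3, 22.4] of H2A.Z UMIs in IT-like cells at P1, then 8.45% [8.12, 8.80] at P4, 3.81% [3.59, 4.03] at P10 and 13.2% [12.7, 13.6] in the adult. Astrocyte-like cells kept a far higher share of H2afv, 34.1% [32.5, 35.7] at P4, 33.6% [31.6, 35.7] at P10 and 43.3% [40.4, 46.2] in the adult, and OPC-like cells had 22.3% to 32.5% over the 4 ages. The sum of both H2A.Z genes in IT-like cells varied less than either gene, with 201, 245, 329 and 259 CPM. Of HMGB UMIs, Hmgb2 held 43.4% [42.9, 43.8] in NPC-like cells of P1, 43.4% at P4 and 43.7% at P10, against 1.14% [1.09, 1.20] in IT-like cells of P1. Hmgb3 went from 31.1% [30.9, 31.4] of HMGB UMIs at P1 to 11.6% in adult in IT-like cells, but from 32.6% [32.2, 33.1] to 23.9% in inhibitory-like cells, and was at 1.78% [1.16, 2.62] in adult microglia-like cells.

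**Figure D5:**
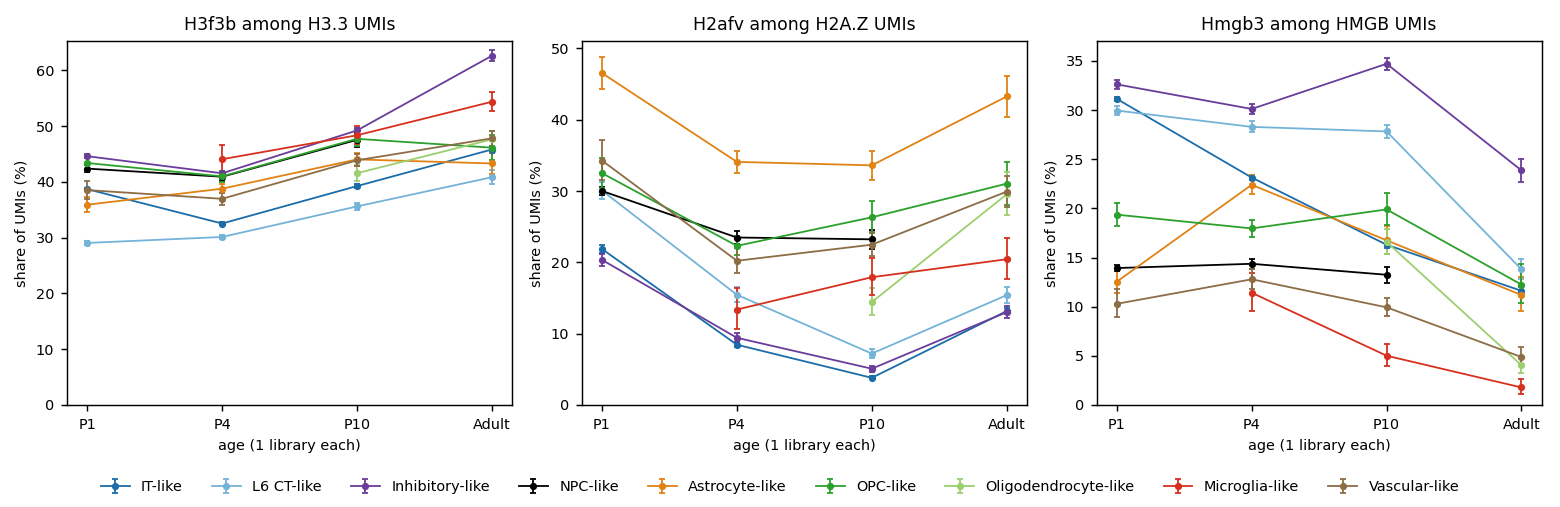
Share of UMIs (percent, axes from 0) held by H3f3b among H3f3a and H3f3b, by H2afv among H2afz and H2afv, and by Hmgb3 among the 3 HMGB genes, by age and class, with exact 95% intervals. Inhibitory-like cells reach 62.6% H3f3b in adult, and the neuronal lines of H2afv have their lowest points at P10.

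After each cell was thinned to 2000 UMIs, the genes differed in how evenly they were spread over cells. H3f3a gave a UMI in 87.0% [86.0, 88.0] of IT-like cells at P1, then 87.3% [86.5, 88.1] at P4, 52.4% [50.7, 54.0] at P10 and 29.1% [27.7, 30.5] in the adult. The Fano factor (variance over mean, about 1 for random sampling of equal cells) stayed at 1.04 to 1.18 for H3f3a in IT-like cells. Hmgb3 passed from 50.9% [49.4, 52.4] of IT-like cells at P1 to 6.28% [5.56, 7.06] in adult, with a Fano factor of at most 1.05. Hmgb2 was spread unevenly outside neurons, with a UMI in 28.3% [25.2, 31.6] of OPC-like cells at P4 and a Fano factor of 2.72, and in 64.1% [60.0, 68.0] of NPC-like cells at P1 with 3.56. In neurons the share of cells with an Hmgb2 UMI, 2.33% [1.89, 2.83] of IT-like cells at P1 and 0.360% [0.201, 0.592] in adult. The part of RNA from other cells in these neuronal UMIs was not tested. H1f0 in OPC-like cells had a Fano factor of 2.08 at P4 and 1.08 in adult.

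Over the 40 profiles of classes and libraries with at least 50 cells, which share libraries and depth, each gene was set beside 9476 others by Pearson's r of log2(CPM + 10), as a description. Hmgb2 was most like Smc4 (0.98), Cdk1 (0.96) and Rbl1 (0.95), and H2afz like Mad2l1 (0.93), Pclaf and Birc5 (both 0.92). Cdk1, Pclaf and Birc5 are among the markers from which NPC-like cells were named. H2afx stood with Ska3, Gen1 and Kpna2 (all 0.94), and H2afv with Arl6ip6 (0.94), Rpa3 (0.93) and Smc4 (0.92). H1f0 was nearest to Rpa3 (0.90), H2afv and Nsmce4a (both 0.89), and H1fx to Nudt21 (0.90), Rad18 (0.88) and Sae1 (0.86). Hmgb1 stood with Hnrnpab (0.95), Nono and Hnrnpa2b1 (both 0.93), and H3f3b with Lsg1 and Hnrnpm (both 0.91). H3f3a was nearest to Gnai3 (0.93), Eif4g2 and Btf3 (both 0.92), and Hmgb3 to H2afy2 (0.95), Nasp and Rnps1 (both 0.94). Among the 10 genes H3f3a was most like Hmgb1 (0.92), and the lowest r was 0.14, between H1f0 and Hmgb3.

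Partners of these proteins were read from lists, as counts of genes that passed 20 CPM. Of 28 histone chaperones and exchange factors, 27 are in the files, and 22 passed in IT-like cells. Of these 12 were 2-fold lower and 0 higher in adult than at P1, with a median of -1.09 against -0.19 for all genes and with 25.0% of all genes lower, with the lowest ratios for Vps72 (-2.16) and Ruvbl2 (-1.94), both members of complexes that deposit H2A.Z, and Nap1l4 (-1.56), a chaperone of H2A and H2B. Of the other HMG genes 10 of 14 passed, 4 were lower and 0 higher, with the lowest ratios for Hmgn1 (-2.57), Hmgxb4 (60.7 CPM at P1 and 15.1 in the adult, with an interval of the log2 ratio from -2.09 to -1.92) and Hmgn5 (-1.71), and in astrocyte-like cells 9 of 10 were lower, where 25.1% of all genes were. The other histone variants gave 3 of 11, of which 1, the macroH2A gene H2afy2 (-3.03), was lower, beside H2afy (-0.25) and H2afj (-0.03). Replication-coupled histone genes, most of whose transcripts lack a poly(A) tail, gave 3 of 67 (Hist3h2ba at -1.64, Hist3h2a at -0.36 and Hist1h2bc at 0.04). In astrocyte-like cells, in contrast to the 10 genes, Hist1h2bc was at 39.2 CPM at P1 and 234 in adult and the linker histone gene Hist1h1c at 13.8 and 79.6. These were 2 of 3 that passed there, where 13.3% of all genes were higher, and the third, Hist3h2a, was at -0.37 [-0.78, 0.05]. Among DNA replication genes 4 of 20 passed in IT-like cells (Mcm7 at -3.56, Pcna at -0.32 and Slbp at -0.29 the largest), and of 6 receptors of extracellular HMGB1 only Cd24a, with 1716 CPM at P1 and 4.71 in adult (-8.51). No proliferation gene passed in IT-like cells. These ratios rest on the P1 library, as stated for the 10 genes. Of the chaperones lower from P1, Hira, Vps72, Ruvbl2, Nap1l4, Set, Npm1 and Hjurp were also 2-fold lower from P4 to adult in IT-like cells. The rest were short of 2-fold from P4 to adult. These were Daxx (35.4 and 21.7 CPM), Ep400 (80.2 and 55.8), Ubn2 (83.7 and 66.7), Asf1a (18.7 and 14.1) and Ino80 (22.8 and 17.7).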

How the data were processed

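Cells of the PFC were captured with BD Rhapsody and their 3′ transcripts counted by unique molecular identifiers (UMIs). The authors aligned reads to mm10 with the vendor's pipeline and deposited 1 table per library of raw UMI counts per cell and gene, with pipeline versions that differ between P1 and the other ages, as the file headers give. From these counts, cells with at least 1000 UMIs, 1000 genes and at most 15% mitochondrial UMIs were kept (11545 at P1, 19014 at P4, 15272 at P10, 14087 from adult mice). Each library was clustered by itself (scanpy 1.11.5, 2000 variable genes, 30 components, 20 neighbours, Leiden resolution 0.5) without the 10 genes, and clusters were named from marker lists. The scoring thresholds for names were set after the clusters' scores had been seen. Cells marked by Scrublet (5.11% to 9.41% of a library) were kept, and an alternative removed them. UMIs were summed per class and library, and CPM, ratios, paralog shares and thinned shares were computed with exact intervals (SciPy 1.17.1, Python 3.11.15). Intervals treat UMIs as independent and cover counting error only.

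No test was made, since each age is 1 library. Genes at 20 CPM or more on the mean of the 2 sums formed the background of each 2-fold count. Scripts were tested on simulated data. The members and lists were chosen with earlier results of these data known. All 10 genes are named throughout. Of each other list the 3 genes with the largest absolute adult over P1 ratio in IT-like cells were named, and for each of the 10 genes the 3 with the highest Pearson's r. For H3f3b, 1 of these is not reported here. The Hist1h genes given for astrocyte-like cells and the chaperones given from P4 to adult were named after their values had been seen. Alternatives were clustering resolution 1.0, a filter of 2000 UMIs, 1500 genes and 10% mitochondrial UMIs, removal of marked doublets, the mean over cells, all genes as denominator, median-ratio scaling, thinning to 4000 UMIs, a cut of 1000 CPM for cycling cells, other minimums for the background and, chosen after seeing the data, cells with no proliferation UMI. Positions and copies came from GENCODE M21 and promoters from RefSeq, both on GRCm38.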

Additional observations from a re-analysis of the deposited data

Results flagged for a closer look

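H1f0 had adult over P1 ratios of opposite sign in neuronal and non-neuronal classes. They ran from 0.54 to 0.81 over the 4 neuronal classes and from -1.56 to -0.82 over astrocyte-like, OPC-like and vascular-like cells. The adult over P4 ratios of H1f0, which do not rest on the P1 library, ran from 0.49 to 0.78 over the same 4 neuronal classes and from -1.83 to -0.67 over the non-neuronal ones. In cells with no proliferation UMI they were -0.39 in OPC-like, -0.49 in vascular-like and -0.77 in astrocyte-like cells. Oligodendrocyte-like cells, which could be compared from P10 only, were at 0.99, and the median level of 8 neuronal genes in them was 58.6% of that in IT-like cells at P10 and 14.1% in the adult, with 38.6% and 2.26% of cells marked as doublets. The part of these in the ratio was not tested.

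H2afz showed the same opposition for adult over P1, with 0.40 to 0.77 in the neuronal and -1.48 to -0.70 in the non-neuronal classes. In OPC-like cells with no proliferation UMI that ratio was 0.02 [-0.23, 0.27]. From P4 to adult, without the P1 library, the ratios of the same 4 neuronal classes were near 0, from 0.003 to 0.14, and the non-neuronal ones ran from -2.10 to -1.09. In cells with no proliferation UMI these were -0.52 in OPC-like, -0.53 in vascular-like and -0.93 in astrocyte-like cells, and microglia-like cells, 50.6% of them cycling at P4, had too few such cells. From P4 to P10 its ratios were 0.19 to 0.78 in IT-like, L5 PT-like, L6 CT-like and inhibitory-like cells and -1.12 to -0.40 in the non-neuronal classes. The -1.12 is that of microglia-like cells, whose P10 value leaves out an unnamed cluster of 227 cells with 625 CPM of H2afz. The part of this cluster was not tested. The opposition was not seen in OPC-like (-0.13 [-0.29, 0.02]) and vascular-like cells (0.07 [-0.14, 0.29]) with no proliferation UMI, but was in such astrocyte-like cells (-0.43 [-0.55, -0.31]). The difference between neuronal and non-neuronal classes was not tested for either gene, with 1 library per age.

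Signals of these genes also appeared in cells outside the named classes. Hmgb1 was at 399 CPM in an adult cluster of 109 cells led by 9630013A20Rik, Enpp6, Gpr17 and Bcas1, beside the highest named adult class (oligodendrocyte-like, 369 CPM). H3f3b was at 489 CPM in an adult cluster of 69 cells led by Cx3cr1, P2ry12 and Csf1r, beside the 457 CPM of oligodendrocyte-like cells. No counting interval was computed for these clusters, so neither value is shown to be the higher.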

How the results depend on the processing

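Of 788 log2 ratios past 2-fold recomputed under an alternative, 784 kept their direction and 731 stayed past 2-fold. The higher H1f0 and H2afz of adult over P1 kept its direction in IT-like, L5 PT-like, L6 CT-like and inhibitory-like cells under every alternative run. With median-ratio scaling, 1 gene was higher in inhibitory-like cells (adult over P1) and 1 lower (P10 over P4), and in oligodendrocyte-like cells (adult over P10) 2 were lower and 1 higher. With the stricter cell filter, OPC-like cells had 5 genes lower (adult over P1), with H2afx at 0.28, oligodendrocyte-like cells had 2, with H1fx at 0.27, and microglia-like cells (adult over P10) had 9. Without cells marked as doublets the counts were 10 in astrocyte-like (P10 over P4), 2 in oligodendrocyte-like, with H1fx at 0.025, and 9 in microglia-like cells. The microglia-like count was also 9 at clustering resolution 1.0, and the oligodendrocyte-like count was 2 with the mean over cells. In cells with no proliferation UMI, an alternative chosen after seeing the data, OPC-like cells had 4 genes lower for adult over P1, with H2afx at 0.54, and 1 for P10 over P4, and oligodendrocyte-like cells had 2. The share of all genes lower in IT-like cells from P4 to P10 was 15.2% with no minimum level and 17.5% at 1.5-fold. No share of all genes is given beside the other counts under an alternative. The cause of these changes was not tested. In L6 CT-like and inhibitory-like cells, where H2afx differed little between adult and P1, median-ratio scaling gave it a positive sign.

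No paired analysis was possible because each age is 1 library. Not run, for lack of cells or of a named class, were adult over P1 in astrocyte-like cells with no proliferation UMI, NPC-like over IT-like cells of P10 at resolution 1.0 and with the stricter filter, cycling NPC-like cells of P1 at resolution 1.0, and those of P10 at resolution 1.0, with the stricter filter and without doublets. Depth limits Hmgb2 in neurons, H1fx and Hmgb3 in microglia-like cells and all values of the smallest classes.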
